A study of Homo sapiens with 9 samples.

Results

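The tumor necrosis factor (TNF) superfamily comprises ligands that act mostly as trimers on the cell surface or after shedding, and receptors that cluster when a ligand binds. It was followed here in PC3 xenografts treated with antibody-drug conjugates. Members were taken by name: every gene whose symbol began with TNFRSF or TNFSF, together with TNF, LTA, LTB, FAS, FASLG, CD70, CD40, LTBR, NGFR, EDA2R and EDAR. The rule gave 41 of the 16204 genes in either count table, of which 40 were in both tables and TNFSF8 was in the P-DXd table alone. By role they were 8 death receptors, 3 decoy receptors, 14 other receptors and 16 ligands. CD27 and TNFRSF6B, which the rule also names, were not analysed here.

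PC3 is a human prostate cancer line derived from a bone metastasis. It has little androgen receptor. The cells grew under the skin of male NSG mice, 11 weeks old in the series record, whose T, B and NK cells are absent. Tumors received PBS (3 libraries), patritumab deruxtecan (P-DXd, an antibody to HER3) or trastuzumab deruxtecan (T-DXd, an antibody to HER2), both at 5 mg/kg for 5 weekly cycles per the series record and both carrying a topoisomerase I inhibitor. The methods text differs from that record in the age of the mice, the starting volume and the number of cycles. It gives younger mice and fewer cycles for the 5 mg/kg experiment whose tumors were sequenced. There, 11 weeks and 5 cycles belong to a separate experiment with T-DXd and vehicle only. The 3 libraries titled PDXd carry T-DXd in their treatment field, and the 3 titled TDXd carry P-DXd. Groups therefore follow the titles (P-DXd-titled or T-DXd-titled), and results are also given for both conjugates against PBS, a comparison that holds whichever record is correct. The labels tell libraries apart by an animal code, and p-values measure the spread between these samples.

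Total counts ran from 54481702 to 125538606 per library. PBS replicate 1 stood farthest from its own group, with a root mean square log2 difference of 0.85 against 0.49 to 0.70 in the other 8 libraries. Keratins 8, 18 and 19, EPCAM and vimentin were all present, with summed levels from 1662 to 3775 CPM (counts scaled to library size by the trimmed mean of M values). Whether mouse reads were removed is not stated in the sources used here, and human and mouse transcripts of a member cannot be told apart in these counts. Macrophage markers summed to 4.98 to 7.69 CPM in PBS, 9.33 to 13.8 in P-DXd-titled and 15.6 to 20.6 in T-DXd-titled libraries. The sum covers 8 of 13 listed symbols, of which ADGRE1 and EMR1 name the same gene, found as EMR1. CD68 was at 0 in a library, and CD163, MRC1, C1QC and TYROBP were not analysed here. Lymphocyte markers summed to at most 2.42 CPM over 5 of 11 genes. Skeletal muscle markers summed to 9.03 to 50.4 CPM in PBS and 97.5 to 3255 CPM in treated tumors, with the highest value in P-DXd-titled replicate 2. In bulk tumors, fewer cells of a type and less RNA per cell cannot be told apart.

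Death receptors carry a cytoplasmic death domain, through which FAS and the TRAIL receptors assemble caspase-8 and through which TNFRSF1A can signal to either NF-kappaB or cell death. Receptors without that domain recruit TRAF adaptors and signal mainly through NF-kappaB, and decoy receptors bind ligand without passing on a death signal. In carcinoma cells the TRAIL and FAS receptors are best known as routes by which chemotherapy and immune cells can trigger apoptosis.

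The set of RefSeq proximal promoters used here held 26 of the 41 members (GRCh38.p14, 250 bases before to 50 after the gene start). TNFRSF11B and TNFRSF12A were among the members without a window in it. Shown here, 5′ to 3′ up to the base before the gene start, are those of 2 ligands that rose under both conjugates and of a ligand that was lower, each with a match to a motif read by inflammatory transcription factors. Capitals mark the matches: an interferon-response (ISRE) core in TNFSF10, an AP-1 site in TNFSF15, and a gamma-activated (GAS) site followed by an NF-kappaB consensus in LTB.
TNFSF10, chr3:172523431-172523680, minus strand: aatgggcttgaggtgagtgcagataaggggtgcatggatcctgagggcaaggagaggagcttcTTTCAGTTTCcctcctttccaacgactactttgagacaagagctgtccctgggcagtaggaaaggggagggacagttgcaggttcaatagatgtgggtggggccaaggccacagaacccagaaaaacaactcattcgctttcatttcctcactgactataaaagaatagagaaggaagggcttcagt
TNFSF15, chr9:114792531-114792780, minus strand: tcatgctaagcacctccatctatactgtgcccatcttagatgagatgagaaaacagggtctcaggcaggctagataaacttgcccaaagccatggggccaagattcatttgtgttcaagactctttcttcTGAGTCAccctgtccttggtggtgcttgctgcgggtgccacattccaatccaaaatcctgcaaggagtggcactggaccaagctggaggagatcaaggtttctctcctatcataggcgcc
LTB, chr6:31582426-31582675, minus strand: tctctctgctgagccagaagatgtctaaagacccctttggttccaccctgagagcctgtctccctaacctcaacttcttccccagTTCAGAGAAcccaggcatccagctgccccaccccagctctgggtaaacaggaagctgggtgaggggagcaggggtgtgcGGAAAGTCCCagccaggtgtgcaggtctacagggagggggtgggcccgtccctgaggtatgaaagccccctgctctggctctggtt
In each promoter both strands were searched. The ISRE core GAAANNGAAA was in 6 of the 26 member windows (FASLG, TNFRSF1B, TNFSF9, TNFSF10, TNFSF13B and TNFSF14; 23.1%) and in 3.57% of 35116 RefSeq windows of the same length. The NF-kappaB consensus, searched by its degenerate letters, was in 5 windows (LTB, TNFRSF9, TNFRSF14, TNFRSF25 and TNFSF14; 19.2%) against 5.91% of all. AP-1 (TGANTCA) was in 6 windows (23.1% against 7.71%) and GAS (TTCNNNGAA) in 4 (15.4% against 7.66%). Of the members with an ISRE core, TNFSF10 and TNFSF13B were higher in treated tumors, FASLG was lower, and TNFRSF1B, TNFSF9 and TNFSF14 were not called. TNFRSF25, which fell, has its NF-kappaB match 37 bases into the gene. The windows of TNF, TNFRSF18, TNFRSF19, TNFRSF21 and TNFSF4, which rose, hold none of the 4 motifs. A match is a description of the letters only.

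By summed exon length, the 7 members with the highest levels in PBS tumors were receptors. Per kilobase of exon, TNFRSF12A (Fn14, the receptor of TWEAK) led at 204 CPM per kb, followed by TNFRSF21 (death receptor 6) at 86.9, TNFRSF18 at 35.9, TNFRSF10B at 35.0, LTBR at 21.1 and TNFRSF1A at 17.3. The highest ligand was CD70, in eighth place at 8.83 CPM per kb. In all, 21 members exceeded 1 CPM per kb and 13 lay under 0.1. The PBS ranges of neighbours in this order overlapped in 36 of 40 pairs. The 4 steps beyond the spread were those from TNFRSF12A to TNFRSF21, from TNFRSF21 to TNFRSF18, from TNFRSF10B to LTBR and from TNFRSF1A to TNFRSF10A. Below TNFRSF12A and TNFRSF21 the order depended on the length used. Divided by the length of the canonical transcript, a choice made after the data were seen, LTBR stood at 60.7 CPM per kb, above TNFRSF10B at 43.9 and TNFRSF18 at 42.1. By that length CD70 ranked 7th at 14.8 CPM per kb, above TNFRSF25 at 10.8 and TNFRSF10A at 10.7. FAS ranked 22nd at its summed exon length of 29.3 kb and 14th, at 5.64 CPM per kb, with the 3.70 kb of its canonical transcript.

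**Figure D1:**
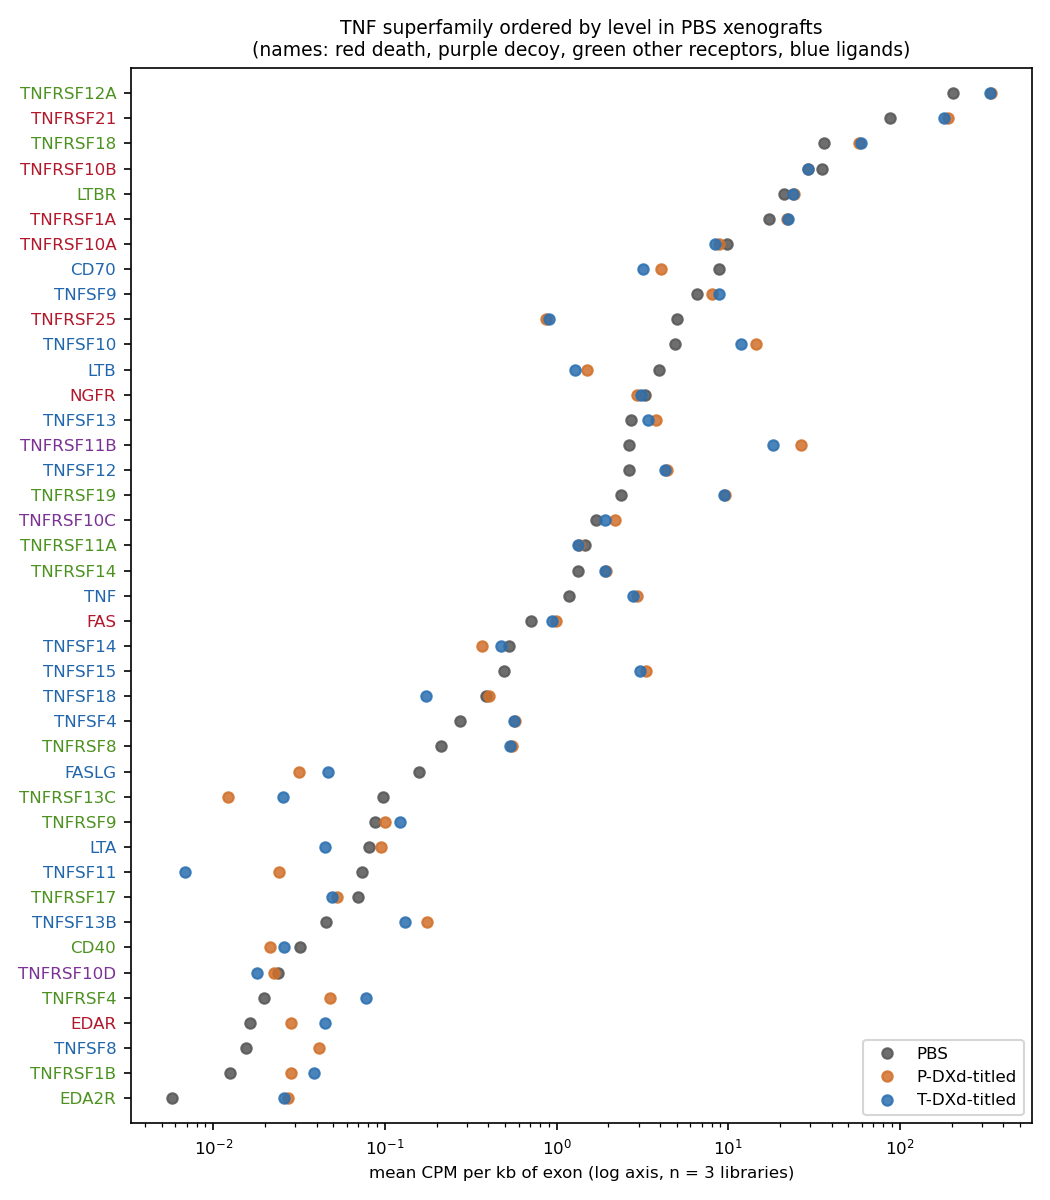
Mean level of each of the 41 members in CPM per kilobase of exon (log axis), ordered by the PBS mean of 3 libraries, with PBS in grey, P-DXd-titled in orange and T-DXd-titled in blue. TNFRSF12A led in every group, at 204 CPM per kb in PBS, and 21 of the grey points lie above 1 CPM per kb.

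Members were called at an adjusted p of at most 0.05 and a fold change of at least 1.5. Against PBS, 13 of the 36 members tested were higher and 5 lower over both conjugates, where 15.2% of all 15070 genes tested were called higher and 17.1% lower. Among the 13, TNFRSF4 passed the filter on low counts through treated libraries alone. Among the 5, TNFRSF13C and FASLG passed it mainly through PBS libraries. The calls of these 3 members therefore lean on the group where each was high. P-DXd-titled tumors had 9 members higher and 2 lower of 31 tested (all genes, 11.2% higher and 13.8% lower), and T-DXd-titled tumors had 10 higher and 3 lower of 35 (13.1% and 15.5%). Members not tested had too few reads, at most 43 counts in any library for the 5 left out of the joint comparison (EDA2R, TNFRSF10D, TNFRSF17, TNFSF8 and TNFSF11). The median log2 fold change over tested members was 0.36 for both conjugates, 0.36 for P-DXd-titled and 0.39 for T-DXd-titled tumors, where all genes had -0.01, -0.01 and -0.02. Without PBS replicate 1 the joint comparison gave 12 higher and 4 lower (43.2% of members called, beside 27.6% of all genes). Without P-DXd-titled replicate 2, the library with the most muscle reads, it gave 13 and 5 (51.4% beside 32.1%). With all libraries the shares were 50% and 32.2%. Both treated groups were set against the same 3 PBS libraries.

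Counts are given by role, beside 32.2% of all genes called over both conjugates. Among the 8 death receptors 1 rose and 1 fell (25% called), with a median log2 fold change of 0.10 over both conjugates. Without EDAR, which had few counts, the middle value was that of NGFR, -0.14. Of 14 other and decoy receptors tested, 6 rose and 1 fell (50% called, median 0.60), and of 14 ligands 6 rose and 3 fell (64.3%, median 0.36). These counts and medians lean in part on the count filter. TNFRSF4 (log2 fold change 1.61) and the uncalled TNFRSF1B (1.44, at most 9 counts in a PBS library) passed it through treated libraries. Both lie above the receptor median. The receptor that fell, TNFRSF13C, and FASLG among the ligands that fell passed it mainly through PBS libraries. Medians without these members were not computed. In P-DXd-titled tumors the medians were -0.16, 0.52 and 0.48, and in T-DXd-titled tumors 0.12, 0.51 and 0.36. The 2 death receptor medians are not over the same set. EDAR was too low to test with P-DXd-titled, which left 7 death receptors, and was among the 8 tested with T-DXd-titled. Without EDAR the middle value with T-DXd-titled was that of NGFR, -0.10. With single libraries left out the death receptor median changed sign, and the number of death receptors tested varied between 7 and 8. The difference between death receptors and the rest was not tested, since the groups of members were set with earlier results known.

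**Figure D2:**
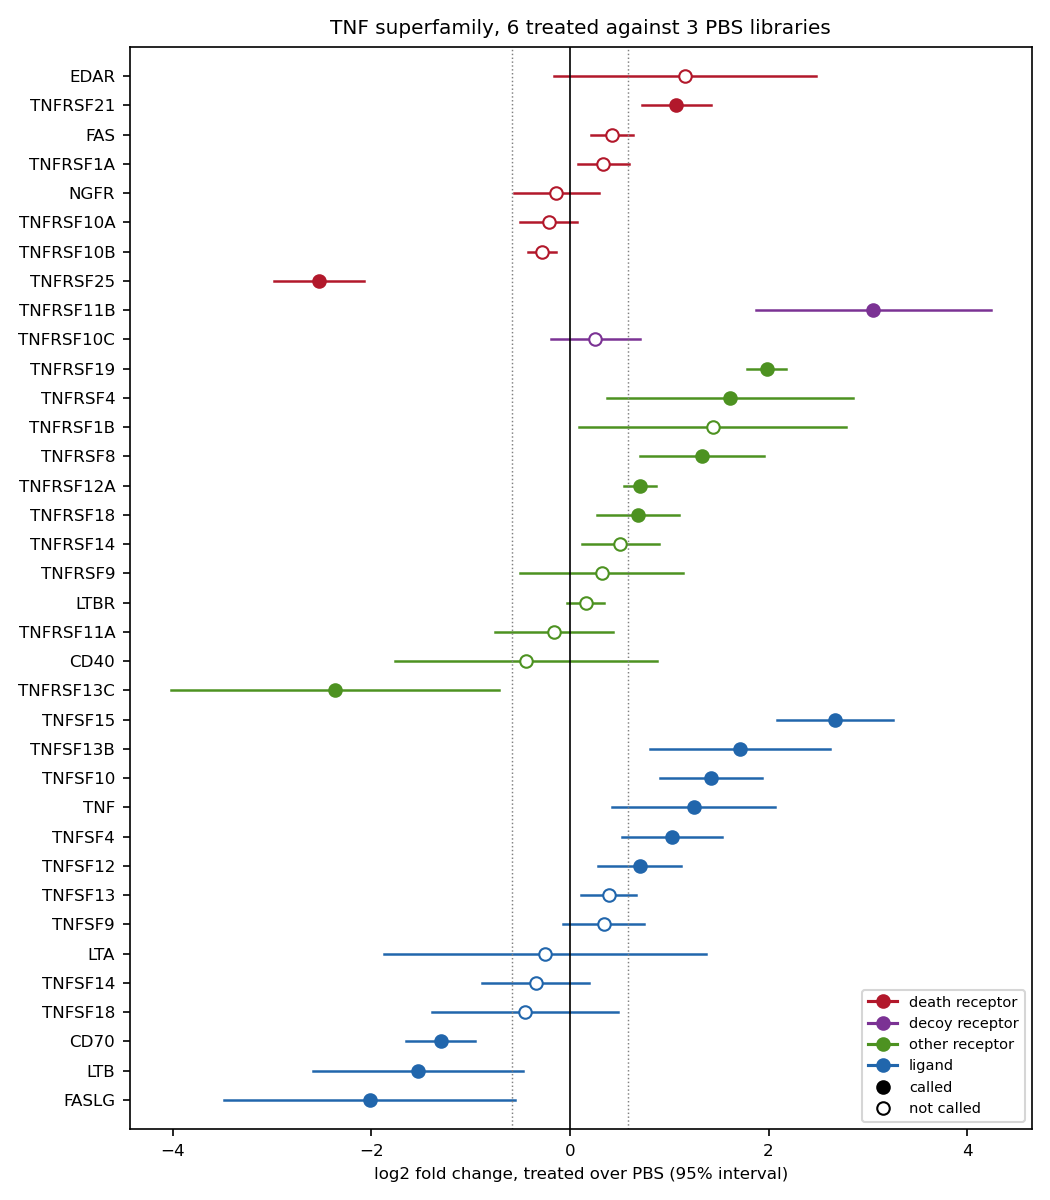
Log2 fold change of 36 tested members in 6 treated against 3 PBS libraries, with 95% intervals, colored by role, with dotted lines at a 1.5-fold change and filled points for called members. TNFRSF25 lies alone on the left among death receptors (-2.53), and TNFRSF11B has the highest value of all (3.06).

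TNFRSF25 (death receptor 3) was the death receptor with the deepest fall. It read 31.3, 18.6 and 14.1 CPM in the PBS libraries, 3.39, 3.97 and 3.68 in the P-DXd-titled and 4.38, 3.64 and 3.52 in the T-DXd-titled libraries. Every treated library lay under every PBS library, and no treated library reached 5 CPM. The log2 fold change was -2.55 (SE 0.31, adjusted p = 0.00239) with P-DXd-titled, -2.49 (SE 0.31, adjusted p = 0.00179) with T-DXd-titled and -2.53 (SE 0.21, adjusted p = 7.78e-06) with both, and -2.12 without PBS replicate 1. The tables, which give no genome build, place the gene on chromosome 1 from 6521211 to 6526255, where it overlaps PLEKHG5 and ESPN. PLEKHG5 also fell, from 99.0 ± 21.4 (SD, n = 3, as for the other ± values here) to 44.5 ± 4.28 and 40.8 ± 1.29 CPM (log2 fold change -1.24, adjusted p = 1.95e-05), while ESPN rose (1.67, adjusted p = 0.00266). Whether the counting used strand is not stated, and the part of shared reads was not tested.

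TNFRSF21 was the most abundant death receptor and moved the other way. Its levels were 208, 372 and 357 CPM in PBS, 684, 651 and 725 in P-DXd-titled and 659.7, 649 and 626 in T-DXd-titled tumors. The groups did not overlap, and PBS replicate 1 was the lowest library. Log2 fold changes were 1.13 (SE 0.21, adjusted p = 0.00888), 1.03 (SE 0.21, adjusted p = 0.00875) and 1.07 (SE 0.16, adjusted p = 0.000241) for P-DXd-titled, T-DXd-titled and both, and 0.86 for both without PBS replicate 1. TNFRSF21 is known from neurons and lymphocytes and can induce apoptosis when overexpressed.

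The TRAIL receptors, which trigger apoptosis on binding TNFSF10, were not called in any comparison. TNFRSF10B (death receptor 5) read 167, 191 and 168 CPM in PBS, 150.3, 143 and 147 in P-DXd-titled and 151, 141 and 145 in T-DXd-titled tumors. All 6 treated libraries were under all 3 PBS libraries, yet the log2 fold change of -0.28 (SE 0.06, adjusted p = 0.00307) stayed within the 1.5-fold limit, as did its 95% interval of -0.42 to -0.15. TNFRSF10A (death receptor 4) read 35.7, 27.96 and 23.0 CPM in PBS, 27.5, 22.9 and 27.4 in P-DXd-titled and 25.5, 24.0 and 24.3 in T-DXd-titled tumors. Its groups overlapped, and its log2 fold change was -0.22 (95% interval -0.50 to 0.07, adjusted p = 0.174). TNFRSF10B overlaps RHOBTB2, which was not called (-0.16, adjusted p = 0.179).

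FAS and TNFRSF1A, the receptors of FAS ligand and of TNF, passed the adjusted p in the joint comparison but not the fold minimum. FAS was at 19.5, 21.2 and 21.8 CPM in PBS, 33.4, 26.5 and 27.7 in P-DXd-titled and 29.7, 25.2 and 27.9 in T-DXd-titled tumors. Every treated library was above every PBS library, with a log2 fold change of 0.43 (95% interval 0.21 to 0.64, adjusted p = 0.00357). ACTA2, which overlaps FAS, moved the opposite way (-0.92, adjusted p = 0.000333). TNFRSF1A was at 57.1, 81.0 and 79.6 CPM in PBS, 95.4, 80.4 and 100.4 in P-DXd-titled and 88.2, 91.1 and 101 in T-DXd-titled tumors, where 1 treated library lay within the PBS range (0.34, 95% interval 0.08 to 0.59, adjusted p = 0.029). Without PBS replicate 1 its log2 fold change was 0.20 and its adjusted p 0.0589, which missed the threshold.

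NGFR, the low-affinity neurotrophin receptor, read 9.98, 17.1 and 13.7 CPM in PBS, 8.76, 11.6 and 16.4 in P-DXd-titled and 12.8, 12.6 and 13.2 in T-DXd-titled tumors. The groups overlapped fully (log2 fold change -0.14, 95% interval -0.57 to 0.29, adjusted p = 0.572). EDAR, which serves ectodermal appendages, had 10, 9 and 4 counts in PBS, 14, 3 and 10 in P-DXd-titled and 9, 9 and 23 in T-DXd-titled libraries. At this depth no difference was detectable for EDAR (log2 fold change 1.16, 95% interval -0.16 to 2.48, adjusted p = 0.12).

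**Figure D3:**
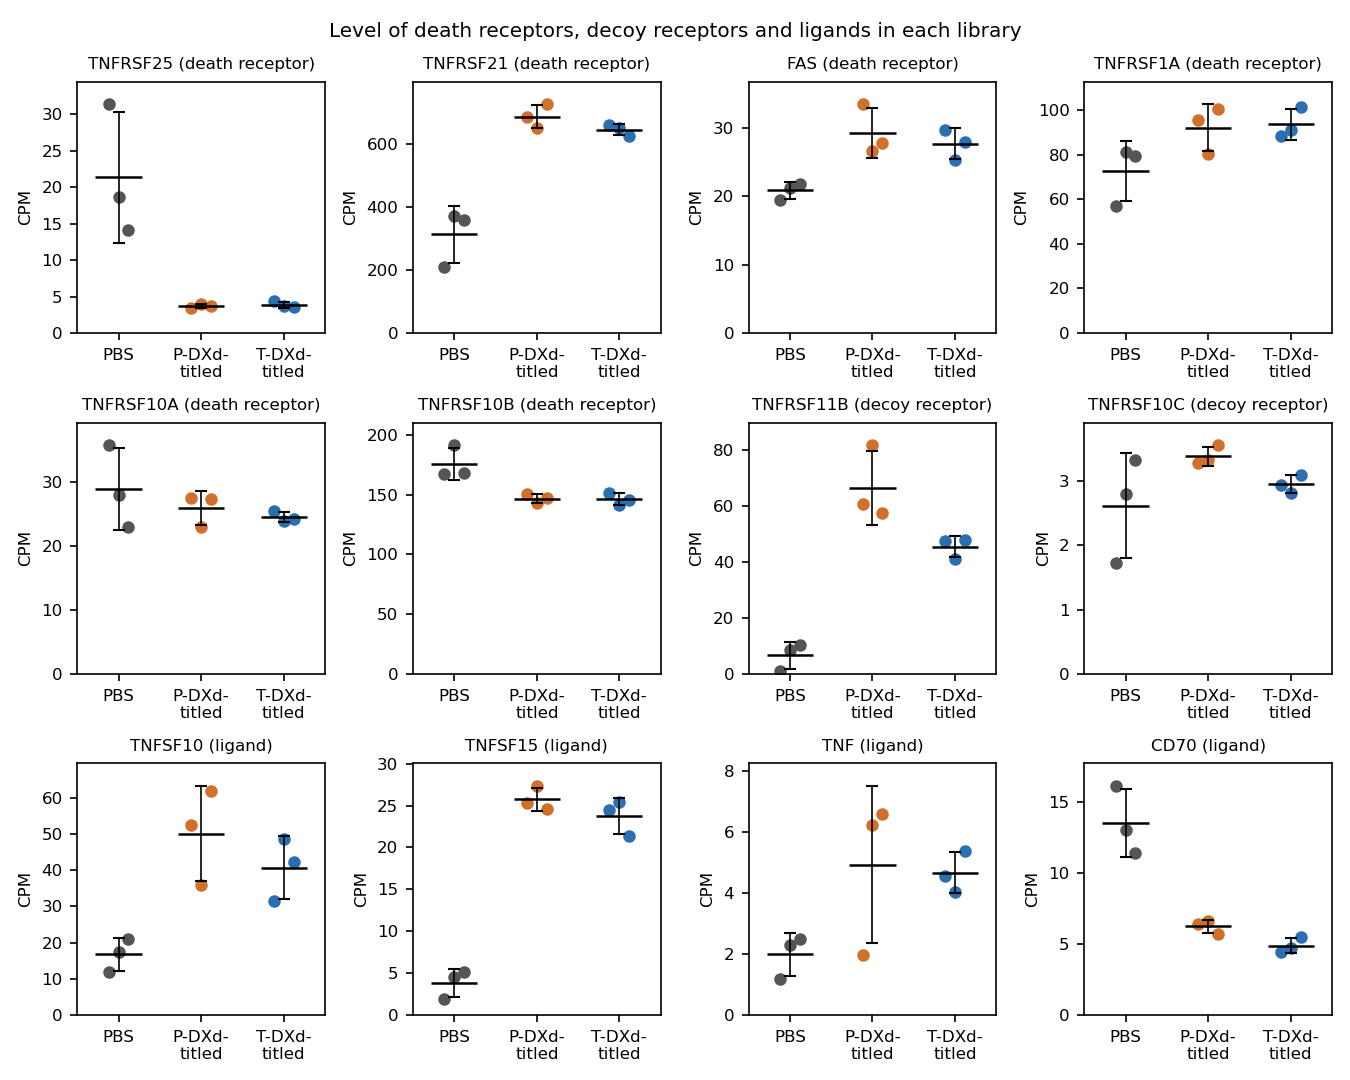
CPM of 6 death receptors, 2 decoy receptors and 4 ligands in each library (linear axes from 0), with 1 point per library, a bar at the mean and error bars of 1 SD over 3 libraries. TNFRSF25 and CD70 lie lower and TNFRSF21, TNFRSF11B, TNFSF10 and TNFSF15 higher in all treated libraries, while TNFRSF10A and TNFRSF10C overlap between groups.

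Among decoy receptors, TNFRSF11B (osteoprotegerin, a secreted receptor that traps RANKL and TRAIL) showed the largest rise of any tested member. It read 1.22, 8.45 and 10.3 CPM in PBS, 60.8, 81.8 and 57.5 in P-DXd-titled and 47.6, 41.1 and 48.0 in T-DXd-titled tumors. The groups did not overlap, and PBS replicate 1 was far below the other PBS libraries. Log2 fold changes were 3.32 (SE 0.67, adjusted p = 0.0114) with P-DXd-titled, 2.76 (SE 0.65, adjusted p = 0.0152) with T-DXd-titled and 3.06 (SE 0.54, adjusted p = 0.000775) with both. Without PBS replicate 1 the joint value was 2.58 (adjusted p = 3.24e-06). The call with T-DXd-titled was lost without T-DXd-titled replicate 1 (adjusted p = 0.0514) or replicate 3 (adjusted p = 0.0541), with log2 fold changes of 2.73 and 2.72.

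TNFRSF10C, a TRAIL decoy anchored by a lipid tail, read 1.72, 2.80 and 3.33 CPM in PBS, 3.28, 3.32 and 3.56 in P-DXd-titled and 2.95, 2.81 and 3.09 in T-DXd-titled tumors, and was not called (log2 fold change 0.25, 95% interval -0.19 to 0.70, adjusted p = 0.303). TNFRSF10D, a TRAIL decoy with a truncated death domain, had 7, 9 and 12 counts in PBS, 6, 9 and 0 in P-DXd-titled and 1, 12 and 1 in T-DXd-titled libraries and was not tested.

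Receptors without a death domain held the most abundant member. TNFRSF12A read 341, 369 and 391 CPM in PBS, 583, 597 and 650.3 in P-DXd-titled and 603, 562 and 643 in T-DXd-titled tumors, with no overlap between PBS and treated libraries. Its log2 fold changes were 0.73 (SE 0.10, adjusted p = 0.00368), 0.70 (SE 0.09, adjusted p = 0.00212) and 0.70 (SE 0.07, adjusted p = 3.27e-05) for P-DXd-titled, T-DXd-titled and both. CLDN6, which overlaps it, was at 0.256 CPM or less on average in each group.

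TNFRSF19 (TROY), a receptor linked to Wnt signalling and stem cells, was the member with the smallest error relative to its change. It read 10.7, 12.03 and 13.6 CPM in PBS, 46.1, 50.8 and 49.3 in P-DXd-titled and 51.4, 47.0 and 46.8 in T-DXd-titled tumors. All treated libraries lay more than 30 CPM above all PBS libraries. Log2 fold changes were 2.00 (SE 0.12, adjusted p = 0.00139), 1.98 (SE 0.11, adjusted p = 0.00033) and 1.98 (SE 0.09, adjusted p = 6.99e-07).

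TNFRSF8 (CD30) and TNFRSF18 (GITR), co-stimulatory receptors best known on lymphocytes, were also higher. TNFRSF8 read 1.19, 0.660 and 0.576 CPM in PBS, 1.63, 2.16 and 2.49 in P-DXd-titled and 2.13, 2.299 and 1.68 in T-DXd-titled tumors, without overlap (log2 fold change 1.33, SE 0.28, adjusted p = 0.00244 over both). TNFRSF18 read 27.4, 55.7 and 53.8 CPM in PBS, 76.5, 65.5 and 77.5 in P-DXd-titled and 68.4, 74.5 and 82.9 in T-DXd-titled tumors. It was called over both conjugates and in neither alone (P-DXd-titled 0.68, adjusted p = 0.0755; T-DXd-titled 0.70, adjusted p = 0.0602). The size of the joint change rested on PBS replicate 1, since the log2 fold change was 0.68 (adjusted p = 0.0102) with it and 0.43 (adjusted p = 0.00102) without it, which is under the fold minimum. Of the 11 lymphocyte markers listed, 6 were not analysed here, and the 5 others summed to 1.19 to 2.16 CPM in PBS and 1.25 to 2.42 in treated tumors.

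TNFRSF4 (OX40) and TNFRSF13C (the BAFF receptor) were called at very low counts, over both conjugates only. TNFRSF4, at no more than 0.0466 CPM in PBS, entered the joint test through treated libraries alone. TNFRSF13C entered it mainly through PBS replicates 1 and 2. With 3 against 3 libraries TNFRSF4 was too low to test, as was TNFRSF13C with P-DXd-titled, and TNFRSF13C was not called with T-DXd-titled (-1.93, adjusted p = 0.158). TNFRSF4 had 4, 6 and 3 counts in PBS, 8, 2 and 10 in P-DXd-titled and 8, 11 and 13 in T-DXd-titled libraries (log2 fold change 1.61, adjusted p = 0.0309), and 1 treated library lay within the PBS range. TNFRSF13C had 71, 37 and 7 counts in PBS, 2, 4 and 3 in P-DXd-titled and 13, 2 and 6 in T-DXd-titled libraries (-2.37, adjusted p = 0.0201). Without PBS replicate 1 the values were 1.71 (adjusted p = 0.0609) and -1.26 (adjusted p = 0.172). The call of TNFRSF4 was also lost without PBS replicate 2 (adjusted p = 0.0669) or 3 (adjusted p = 0.104).

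Of the receptors not called, LTBR, which drives the alternative NF-kappaB route, averaged 129.6 ± 15.5 CPM in PBS tumors, with 147 ± 11.6 (P-DXd-titled) and 146 ± 9.92 CPM (T-DXd-titled) after treatment (log2 fold change 0.16, 95% interval -0.03 to 0.35). TNFRSF14 (HVEM) averaged 8.28 ± 2.52, 11.97 ± 0.767 and 11.9 ± 1.27 CPM, below the fold minimum (0.51, adjusted p = 0.0289). TNFRSF11A (RANK) averaged 13.2 ± 6.72 CPM in PBS and 12.1 ± 2.31 and 11.9 ± 0.619 after treatment. TNFRSF9, CD40, TNFRSF1B, EDA2R and TNFRSF17 stayed under 1 CPM in every library. TNFRSF1B, the other TNF receptor, had between 2 and 12 counts in each library.

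Ligands both rose and fell. TNFSF15 (TL1A), which inhibits vessel growth and is the ligand of TNFRSF25, read 1.89, 4.53 and 5.08 CPM in PBS, 25.3, 27.3 and 24.6 in P-DXd-titled and 24.5, 25.5 and 21.4 in T-DXd-titled tumors. Every treated library exceeded 20 CPM, and no PBS library exceeded 6. Log2 fold changes were 2.74 (SE 0.35, adjusted p = 0.0028), 2.61 (SE 0.35, adjusted p = 0.00211) and 2.67 (SE 0.26, adjusted p = 2.34e-05), and 2.36 for both without PBS replicate 1. Ligand and receptor thus moved in opposite directions in this pair.

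TNFSF10 (TRAIL), whose promoter is shown above with its ISRE core, read 11.9, 17.4 and 20.99 CPM in PBS, 52.4, 35.9 and 61.8 in P-DXd-titled and 31.5, 48.5 and 42.3 in T-DXd-titled tumors. PBS and treated libraries did not overlap. Log2 fold changes were 1.57 (SE 0.26, adjusted p = 0.00618), 1.26 (SE 0.24, adjusted p = 0.00666) and 1.42 (SE 0.23, adjusted p = 0.000511). Of the 5 receptors that bind TRAIL, the decoy TNFRSF11B rose, TNFRSF10A and TNFRSF10C were not called, TNFRSF10B stayed within the fold minimum and TNFRSF10D was too low to test.

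TNF itself read 1.18, 2.28 and 2.51 CPM in PBS, 1.96, 6.22 and 6.59 in P-DXd-titled and 4.56, 4.04 and 5.39 in T-DXd-titled tumors. P-DXd-titled replicate 1 lay inside the PBS range and the other 5 treated libraries above it. It was called with T-DXd-titled (log2 fold change 1.21, SE 0.31, adjusted p = 0.0192) and with both (1.24, SE 0.37, adjusted p = 0.0152), and not with P-DXd-titled (1.297, SE 0.50, adjusted p = 0.0807). Without T-DXd-titled replicate 1 or 3 the T-DXd-titled value was 1.23 (adjusted p = 0.0607) and 1.09 (adjusted p = 0.0774), and without P-DXd-titled replicate 1 the P-DXd-titled value was 1.67 (adjusted p = 0.0314). Summed macrophage markers were higher in all treated than in all PBS libraries (at least 9.33 against at most 7.69 CPM), with TYROBP and CD163 not analysed and CD68 averaging 0.0619 CPM in PBS, and their part in the rise of TNF was not tested.

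TNFSF13B (BAFF), the B cell survival factor, and TNFSF4 (OX40 ligand) rose from low levels. TNFSF13B read 0.0668, 0.179 and 0.168 CPM in PBS, 0.383, 0.517 and 0.717 in P-DXd-titled and 0.387, 0.379 and 0.428 in T-DXd-titled tumors (log2 fold change 1.71, SE 0.41, adjusted p = 0.00482), with 6 to 47 counts per library. TNFSF4 read 0.757, 1.18 and 1.32 CPM in PBS, 1.88, 2.44 and 2.502 in P-DXd-titled and 2.14, 2.65 and 1.91 in T-DXd-titled tumors (1.03, SE 0.23, adjusted p = 0.0032). Neither overlapped between PBS and treated libraries. In the comparisons of 3 against 3 libraries their calls, and those of TNFRSF8, were lost with several single libraries left out, at adjusted p between 0.0519 and 0.112. The call of TNFSF13B with T-DXd-titled was lost whichever single library was left out.

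TNFSF12 (TWEAK), the ligand of TNFRSF12A, read 7.22, 14.0 and 14.7 CPM in PBS, 18.9, 18.8 and 22.0 in P-DXd-titled and 19.4, 20.1 and 19.2 in T-DXd-titled tumors. It was called over both conjugates and in neither alone (adjusted p = 0.0667 with P-DXd-titled and 0.0644 with T-DXd-titled). Its joint log2 fold change of 0.70 (SE 0.19, adjusted p = 0.00882) fell to 0.45 (adjusted p = 0.000841) without PBS replicate 1, under the fold minimum. TNFSF12 overlaps TNFSF13 (APRIL), so that their reads may be shared, and TNFSF13 averaged 6.15 ± 0.792 CPM in PBS and 8.61 ± 0.646 and 7.73 ± 0.513 after treatment (0.39, adjusted p = 0.0215).

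CD70, the ligand of CD27 and a surface antigen of several carcinomas, had the highest level per kilobase of the ligands in PBS tumors and fell. It read 16.1, 13.04 and 11.4 CPM in PBS, 6.42, 6.59 and 5.69 in P-DXd-titled and 4.45, 4.72 and 5.46 in T-DXd-titled tumors, without overlap. Log2 fold changes were -1.12 (SE 0.18, adjusted p = 0.00541), -1.49 (SE 0.18, adjusted p = 0.00163) and -1.303 (SE 0.16, adjusted p = 7.38e-05).

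LTB, which forms the membrane-bound lymphotoxin that engages LTBR, read 1.11, 7.12 and 10.03 CPM in PBS, 2.06, 2.94 and 1.92 in P-DXd-titled and 1.36, 1.96 and 2.60 in T-DXd-titled tumors. PBS replicate 1 lay below every treated library and the other 2 PBS libraries above all of them. It was called lower over both conjugates (log2 fold change -1.53, SE 0.48, adjusted p = 0.0194), with -2.01 (adjusted p = 1.64e-05) without PBS replicate 1, -1.40 (adjusted p = 0.0619) without replicate 2 and -0.97 (adjusted p = 0.126) without replicate 3. In neither conjugate alone was it called (adjusted p = 0.144 with P-DXd-titled and 0.0993 with T-DXd-titled). LTA had 16, 21 and 9 counts in PBS, 6, 12 and 13 in P-DXd-titled and 13, 4 and 0 in T-DXd-titled libraries and was not called (-0.25, 95% interval -1.87 to 1.37).

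FASLG, the ligand of FAS, had 42, 40 and 9 counts in PBS, 2, 3 and 6 in P-DXd-titled and 13, 3 and 2 in T-DXd-titled libraries. It was called lower over both conjugates (log2 fold change -2.02, SE 0.66, adjusted p = 0.0238) and not without PBS replicate 1 (-1.47, adjusted p = 0.103) or replicate 2 (-1.95, adjusted p = 0.0639), and in CPM 2 treated libraries lay within the PBS range. It was not called with T-DXd-titled alone (-1.76, adjusted p = 0.145) and too low to test with P-DXd-titled. FASLG and TNFSF8 (CD30 ligand) are chiefly ligands of immune cells, and these 2 and TNFSF11 (RANKL) each had at most 43 counts in any library.

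Of the ligands not called over both conjugates, TNFSF9 (4-1BB ligand) averaged 10.7 ± 3.49 CPM in PBS and 13.1 ± 1.93 and 14.4 ± 0.788 after treatment, and TNFSF14 (LIGHT) 2.53 ± 0.901, 1.75 ± 0.0598 and 2.28 ± 0.249. TNFSF18 (GITR ligand) read 0.912, 1.12 and 1.14 CPM in PBS, 0.982, 1.44 and 0.885 in P-DXd-titled and 0.539, 0.636 and 0.245 in T-DXd-titled tumors. The T-DXd-titled libraries lay under all others, and the gene was called lower there (-1.17, SE 0.39, adjusted p = 0.0464) and not in P-DXd-titled tumors (0.05, SE 0.31, adjusted p = 0.914). That call was lost, at adjusted p between 0.0666 and 0.112, without PBS replicate 2 or 3 or without any of the T-DXd-titled libraries.

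Set directly against each other, the conjugates gave no called member. With edgeR, 0 of 33 members tested passed in either direction, where 4 of 14653 genes did (0.0273%), and DESeq2 also called 0. An unadjusted p under 0.05 was found for 3 members: TNFRSF11B (log2 fold change 0.55 higher in P-DXd-titled, SE 0.12, adjusted p = 0.809), TNFSF18 (1.21 higher, SE 0.40, adjusted p = 1.00) and CD70 (0.35 higher, SE 0.15, adjusted p = 1.00). Among all genes tested 3.69% had such a p. The 95% interval lay within a 1.5-fold difference for 20 of the 33 members, among them FAS, TNFRSF10A, TNFRSF10B, TNFRSF12A, TNFRSF19, TNFRSF1A, TNFRSF21, TNFRSF25 and TNFSF15. For the other 13, TNF (-0.73 to 0.88), TNFSF10 (-0.13 to 0.73) and LTB (-0.41 to 0.85) included, the interval reached past a 1.5-fold difference. The conjugates differ in their antibody and carry the same payload.

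**Figure D4:**
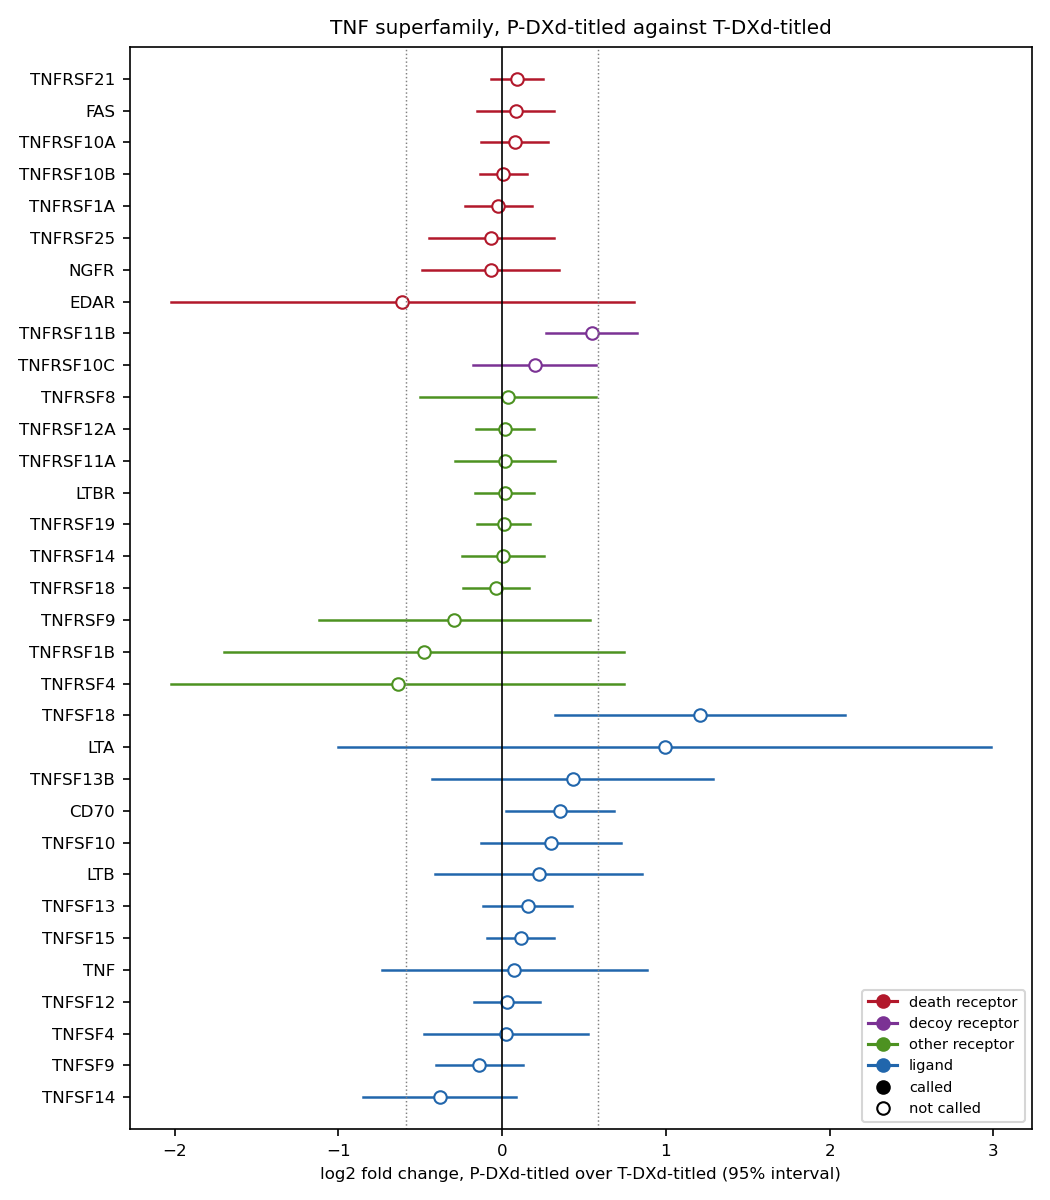
Log2 fold change of 33 members in P-DXd-titled over T-DXd-titled libraries (3 each) with 95% intervals, colored by role, with dotted lines at a 1.5-fold difference. No point is filled, since no member was called, and 20 intervals lie wholly between the dotted lines.

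Downstream of these receptors, calls over both conjugates are given by list, beside 32.2% of all genes tested. In the list of death-inducing and necroptosis proteins, RIPK1 rose (log2 fold change 0.60, SE 0.08, adjusted p = 0.000169) and MLKL, the executor of necroptosis, fell (-0.86, SE 0.20, adjusted p = 0.00417), 2 of 12 in all (16.7%), with CASP8, FADD and CFLAR not called. Without PBS replicate 1, 0 of these 12 were called, with values of 0.52 for RIPK1 and -0.50 for MLKL. Among 14 TRAF adaptors, IAP and LUBAC ligases, TRAF1 rose from 15.2 ± 7.16 to 81.7 ± 17.4 and 86.6 ± 6.92 CPM (2.45, SE 0.30, adjusted p = 7.64e-05), BIRC3 from 66.6 ± 23.9 to 168 ± 20.4 and 156 ± 14.6 CPM (1.26, adjusted p = 0.000393), and TRAF5 fell (-0.72, adjusted p = 0.0115), 3 of 14 (21.4%). TRAF2 (0.57, adjusted p = 0.00018), TRADD (0.52, adjusted p = 0.00368) and TRAF4 (0.49, adjusted p = 0.000273) passed the adjusted p and not the fold minimum, and were named after their values were seen. Of 13 NF-kappaB kinases and subunits only RELB was called (7.69%; 0.72, adjusted p = 0.000644), and it did not reach the fold minimum without PBS replicate 1 (0.56). Receptor shedding genes gave 1 call of 6 (16.7%), TIMP3, an inhibitor of sheddases (1.90, SE 0.30, adjusted p = 0.000406).

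NF-kappaB feedback genes went in both directions. The inhibitors NFKBIA (0.79, SE 0.08, adjusted p = 3.39e-05) and NFKBIE (1.09, SE 0.09, adjusted p = 7.69e-06) rose, while TNFAIP3 (A20; -1.34, SE 0.19, adjusted p = 0.000194) and NFKBIZ (-1.18, SE 0.15, adjusted p = 9.83e-05) fell, 4 of 8 in all. Of 22 TNF-responsive target genes tested, 8 rose and 11 fell, a median of -0.49, beside 32.2% of all genes called, and without PBS replicate 1 they were 7 and 10. PTGS2 (cyclooxygenase 2) read 518, 42.4 and 39.0 CPM in the PBS libraries and 2.72 to 5.14 CPM in all treated libraries (-5.74 with PBS replicate 1, -3.42 without). The chemokine CXCL2 fell (-2.24, adjusted p = 0.000697, and -1.22 without PBS replicate 1), whereas the adhesion molecule VCAM1 (2.35, adjusted p = 0.000515) and the chemokine CCL2 (2.73, adjusted p = 0.00947) rose from under 0.2 CPM on average in PBS. Beside the rule's members, the related receptor RELT fell (-0.88, SE 0.15, adjusted p = 0.000509), the ligand EDA was not called (-0.43, adjusted p = 0.107), and CD40LG was not analysed here.

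**Figure D5:**
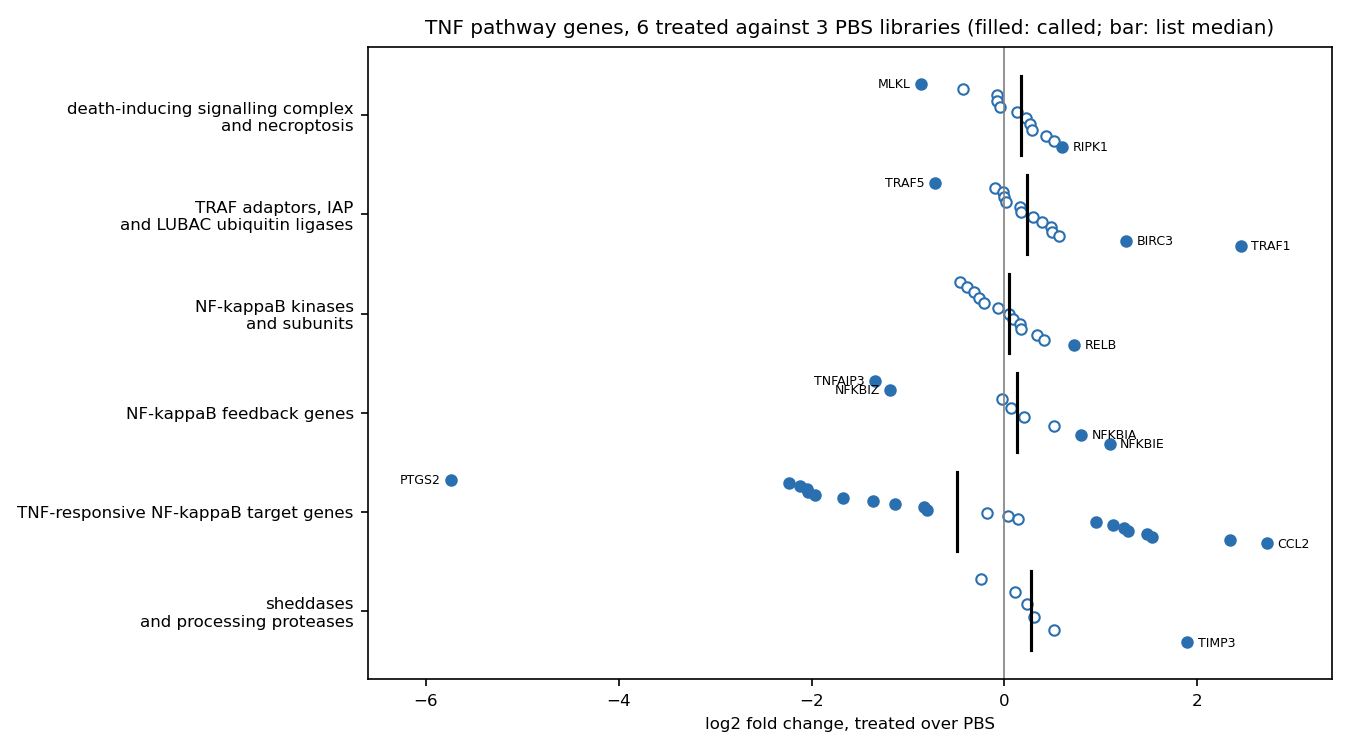
Log2 fold change of each tested gene of 6 TNF pathway lists in 6 treated against 3 PBS libraries, with filled points for called genes and a vertical bar at each list's median. Among adaptors, kinases and death complex genes the filled points are TRAF1, BIRC3, MLKL, TRAF5, RELB and RIPK1, with TRAF2 (0.57) just under the fold minimum, and the target genes spread from -5.74 (PTGS2) to 2.73 (CCL2).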

How the data were processed

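RNA-seq was read from 2 gene tables that share the 3 PBS libraries, holding raw counts that the authors deposited, made per the study's methods and the submitters' processing notes with Cutadapt, STAR and featureCounts. The methods name GRCh38, which the listed coordinates do not match. No per-sample column was left unused. Gene counts were fitted with the quasi-likelihood F test of edgeR 4.0.16 (R 4.3.3; TMM, filterByExpr, two-sided, Benjamini-Hochberg over all genes tested), with 6 libraries per comparison and all 9 for both conjugates, without covariates. DESeq2 1.42.0 was an alternative. The scripts were tested on simulated data. Levels are CPM, divided by summed exon length in GENCODE v44 between genes. Intervals cover 95%. Replicate libraries differed beyond sampling noise (chi-square per gene 17.2 to 388). Members and lists were chosen with earlier results of these data known. Members called in any comparison, death and decoy receptors and death ligands are given with values in every library. From each pathway list up to 4 called genes, by size of change, are given mostly by fold change.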

Additional observations from a re-analysis of the deposited data

How the results depend on the processing

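Leaving out 1 library at a time, the members called were 8 to 13 for P-DXd-titled against PBS (11 with all libraries), 7 to 17 for T-DXd-titled (13), with 7 without T-DXd-titled replicate 1 or 3 and 17 without PBS replicate 1, and 16 to 18 for both conjugates (18). The death receptor median ran from 0.038 to 0.22 for P-DXd-titled (-0.16 with all libraries) and from -0.22 to 0.24 for both conjugates (0.10). It was taken over 7 or 8 members tested, depending on the fit. With all libraries EDAR was too low to test with P-DXd-titled, and the median there was the value of NGFR. Over both conjugates EDAR was tested with all libraries and in 9 of 12 alternatives. These medians are thus not all over the same set. Over both conjugates with all libraries, the median was 0.10 with EDAR and -0.14, the value of NGFR, without it. With single libraries left out, a change in the members tested was not separated from a change in their values. Signs turned for uncalled members with 1 library left out: in P-DXd-titled tumors TNFRSF10A (-0.32 to 0.022), NGFR (-0.42 to 0.031), LTA (-0.10 to 0.56) and TNFSF18 (-0.18 to 0.19), in T-DXd-titled tumors TNFRSF10C (-0.066 to 0.36) and NGFR (-0.27 to 0.094), and over both NGFR (-0.30 to 0.058) and LTA (-0.54 to 0.018). DESeq2 called 15, 18, 19 and 0 members in the 4 comparisons. Without a fold minimum 12, 15, 23 and 0 passed. The first digit of the animal code, used as a replicate block, gave 11, 10, 15 and 0 calls. The calls of FASLG, TNFRSF4 and TNFRSF13C over both conjugates were lost with it. So were those of TNFSF4, TNFSF13B and TNFSF18 with T-DXd-titled. Deviations from the group mean correlated at r -0.10 to 0.10 in 13 pairs of libraries sharing the digit and -0.18 to 0.15 in 14 other pairs. With 3 libraries per group this cannot exclude a block, and the digit was read as a number only. The share of all genes called moved with the fit too, over both conjugates from 32.2% with all libraries to 27.6% without PBS replicate 1. The counts under alternatives here are given without that share, so they do not tell a change in the members from a change in all genes. Of 833 values of named members under alternatives, 755 kept direction and call, 51 lost a call, 16 gained one and 11 turned sign. Members with few counts were poorly resolved: EDAR, at 3 to 23 counts per library, had a 95% interval of -0.16 to 2.48.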
